A study of Homo sapiens with 6 samples.

Results

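The mRNAs of 10 chemokines of the senescence-associated secretory phenotype were followed in senescent human fibroblasts depleted of the long noncoding RNA sin-lncRNA. The members were chosen by name, as 7 chemokines of the CXC type (CXCL1, CXCL2, CXCL3, CXCL5, CXCL6, CXCL8, which the deposited table lists under its older symbol IL8, and CXCL12) and 3 of the CC type (CCL2, CCL7 and CCL20). All 10 were found among the 57819 genes of the table. The cells were IMR90 ER:Ras, a line of lung fibroblasts carrying Ras in a form that 4-hydroxytamoxifen (4OHT) switches on. Every library came from cells given 200 nM 4OHT for 3 days. The control group received a scrambled siRNA (siSCR) and the knockdown group an siRNA against sin-lncRNA, with 3 libraries each. All 3 knockdown libraries carry the same siRNA name in the labels. An effect of that sequence on other RNAs and the loss of sin-lncRNA cannot be told apart. Because no library from cells without 4OHT was used, the values compare the siRNAs within 4OHT-treated cells and do not show induction of the chemokines by Ras. Whether the cells had become senescent was not tested here. Nothing in the labels says that the replicates were separate cultures, so p-values measure the spread between these libraries, which may be technical.

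Chemokines are small secreted proteins that guide leukocytes through G protein-coupled receptors, and are named after the spacing of their first conserved cysteines. CXCL1, CXCL2, CXCL3, CXCL5, CXCL6 and CXCL8 act on CXCR2, and CXCL6 and CXCL8 also on CXCR1, and they draw mainly neutrophils. CXCL12 signals through CXCR4, CCL2 and CCL7 draw monocytes through CCR2, and CCL20 is the ligand of CCR6. In senescent fibroblasts many of these genes are switched on by NF-kB and C/EBP factors downstream of interleukin 1, and CXCR2 ligands are known to reinforce senescence.

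The genes lie in few places. In the coordinates of the table (hg19 is the build named in the submitters' processing notes), CXCL8, CXCL6, CXCL1, CXCL5, CXCL3 and CXCL2 lie in that order on chromosome 4 between 74606223 and 74965010, the first 3 on the plus and the others on the minus strand. CCL2 (32582304 to 32584222) and CCL7 (32597240 to 32599261) are neighbours on chromosome 17. CXCL12 is on chromosome 10 (44793038 to 44881941) and CCL20 on chromosome 2 (228678558 to 228682272). RefSeq promoters (GRCh38.p14) were found for 9 of the 10 genes, and the 250 bases before each start were searched on both strands. The gene without a promoter was CCL2, so no motif was searched for it. The kappaB core GGAATTTCC, to which NF-kB dimers bind, was matched in all 6 promoters of the chromosome 4 genes. It was matched in 117 of the 27305 promoters of the RefSeq table (0.428%), and not in the windows of CXCL12, CCL7 or CCL20. In the 6 promoters it started between 77 and 91 bases before the transcription start. The longer NF-kB consensus was matched in CXCL1, CXCL2, CXCL3, CXCL5 and CXCL6, where it overlaps this core. It was also matched in CCL20, whose window holds no core, and in 9.573% of all promoters. Of the genes with this site, CXCL3 and CXCL5 were called lower in knockdowns, CXCL8 higher, and CXCL1, CXCL2 and CXCL6 were not called. Whether the site bears on the direction was not tested. The stretches from 20 bases before the core to the start are shown for these genes, and capitals mark the core.
CXCL8 (chr4:73740458-73740568, plus strand): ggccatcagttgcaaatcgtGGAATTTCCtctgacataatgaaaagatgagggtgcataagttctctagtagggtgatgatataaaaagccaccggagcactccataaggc
CXCL6 (chr4:73836569-73836677, plus strand): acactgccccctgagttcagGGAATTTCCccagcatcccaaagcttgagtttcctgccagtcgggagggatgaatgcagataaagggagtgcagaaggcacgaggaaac
CXCL1 (chr4:73869295-73869392, plus strand): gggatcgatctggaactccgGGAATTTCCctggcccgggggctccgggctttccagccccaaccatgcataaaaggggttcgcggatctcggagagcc
CXCL5 (chr4:73998678-73998787, minus strand): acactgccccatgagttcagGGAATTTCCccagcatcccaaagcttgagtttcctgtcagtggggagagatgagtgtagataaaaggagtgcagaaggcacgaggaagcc
CXCL3 (chr4:74038690-74038787, minus strand): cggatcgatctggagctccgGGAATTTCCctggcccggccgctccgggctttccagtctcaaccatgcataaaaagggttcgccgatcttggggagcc
CXCL2 (chr4:74099196-74099292, minus strand): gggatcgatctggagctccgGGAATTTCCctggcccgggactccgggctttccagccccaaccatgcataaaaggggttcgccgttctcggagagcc

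These promoters fall into close copies. The 250 bases of CXCL1 and CXCL3 were 81.4% identical, those of CXCL5 and CXCL6 85.3%, and those of CXCL8 and CXCL1 43.9%. The AP-1 motif TGANTCA was matched in CXCL8 and CCL7 and in 6.596% of all promoters. The TATA box TATAAA was matched in CXCL8, CCL7 and CCL20 and in 11.133% of all promoters. The GC box GGGCGG was matched in CXCL1, CXCL3, CXCL6 and CXCL12 and in 42.307% of all promoters. A match describes the letters of the window only.

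**Figure D1:**
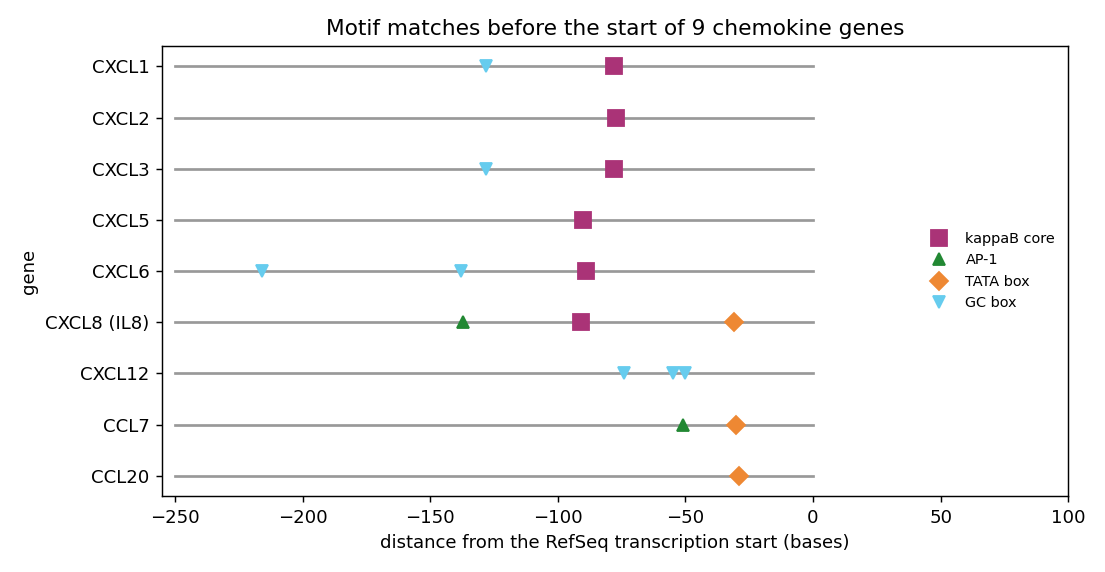
Motif matches in the 250 bases before the RefSeq start of 9 chemokine genes; the x axis is the distance from the start in bases, each row is a gene, and each symbol marks the first base of a match on either strand. The kappaB core (squares) is in the 6 genes of chromosome 4, 77 to 91 bases before the start.

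The transcripts of CXCL1, CXCL2 and CXCL3 are also alike, which bears on counting reads of 50 bases. Of the distinct stretches of 50 bases in GENCODE 29 transcripts, 4.81% of those in CXCL1, 12.48% in CXCL2 and 6.01% in CXCL3 also occur in another gene, in each case another of these 3. The longest run shared by CXCL1 and CXCL2 is 77 bases and lies outside the open reading frame of CXCL1. The longest run shared by CXCL2 and CXCL3 is 97 bases and that shared by CXCL1 and CXCL3 is 55 bases, both inside the open reading frame. The runs of 97 and 55 bases are printed because a read within them fits more than 1 gene.
CXCL2 and CXCL3: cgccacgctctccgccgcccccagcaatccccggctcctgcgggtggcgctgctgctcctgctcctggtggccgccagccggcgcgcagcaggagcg
CXCL1 and CXCL3: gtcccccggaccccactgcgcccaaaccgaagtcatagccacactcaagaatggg
CXCL5 shares 1.12% with GLYR1 and CXCL6 2.16% with the pseudogene PPBPP1. For CXCL8, CXCL12, CCL2, CCL7 and CCL20 no such stretch (0%) was found in another gene. How reads that fit several genes were counted is not given in the sources used here, so the values of CXCL1, CXCL2 and CXCL3 are uncertain. The shares above count exact matches over all annotated transcripts of a gene, so they do not bound the share of reads affected. CXCL6, CXCL12 and CCL2 overlap other listed genes, which held 0 to 2 reads in any library. Whether reads falling in more than 1 gene were counted is not given in the sources used here. These low counts therefore do not show that no reads were lost.

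Libraries held 30271192 to 50913672 reads in genes in controls and 22117324 to 27882280 in knockdowns, so depth and group cannot be told apart. Levels are given as RPM, each library's reads scaled to a common total after the deposited scaling; a gene without reads could still hold 3 of them, or 0.0596 to 0.134 RPM, counting error only. The targeted lncRNA, which checks the labels, was at 3.70, 4.73 and 4.09 RPM in controls and 0.493, 0.640 and 0.534 RPM in knockdowns (13.3% of control). It is annotated as antisense to another gene, and whether counting used strand is not given in the sources used here. Fibroblast markers were high in all libraries, at 15500 to 16700 RPM in sum in controls and 11200 to 11600 in knockdowns. Of these 8 markers 3 were called higher and 5 lower in knockdowns, where 41% of all genes tested were called. PTPRC, the defining leukocyte marker, had 1 to 3 reads per library. Leukocyte markers (8 genes) summed to 1.77 to 2.30 RPM in controls and 0.896 to 1.99 in knockdowns, with CD3E at 0 to 1 reads. CSF1R had 4 to 37 and ITGAX 9 to 37 reads per library. The 5 endothelial markers found summed to 7.05 to 7.96 and 7.98 to 8.84 RPM, with CDH5 at 0 to 1 reads. VWF had 49 to 90 reads, and TEK had 141 to 296 (5.09 to 6.36 RPM). The 6 epithelial markers summed to 4.34 to 5.09 and 3.07 to 3.63 RPM, with KRT5 and SCGB1A1 at 0. EPCAM had 6 to 22 and CLDN4 63 to 227 reads. ITGAX (log2 fold change -0.86, SE 0.26; limma, adjusted p = 0.0213) and CLDN4 (-0.58, SE 0.12; limma, adjusted p = 0.0027) fell, and VWF rose (0.42, SE 0.14; limma, adjusted p = 0.0342). ITGAX was not called in 5 and VWF in 7 of the alternative fits. The part of such cells in the chemokine values was not tested. In bulk RNA, fewer expressing cells and less RNA per cell cannot be told apart.

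Of the 10 chemokines, 9 reached the minimum of 10 normalized reads on average and were tested; CCL20 (8.3) did not. CXCL8 and CCL2 rose, CXCL3 and CXCL5 fell, and 5 did not pass the threshold (limma, Benjamini-Hochberg adjusted p under 0.05 over the 19048 genes tested). Over all genes tested, 17.5% were called higher and 23.5% lower, 41.0% in all, so the number of chemokines called was near the background. The median log2 fold change was 0.01 for the 9 chemokines and -0.04 for all genes tested. Groups did not overlap for CXCL3, CXCL8 and CCL2, that is 3 of the 9, where 51.1% of all genes tested showed no overlap.

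Levels per kilobase used the bases covered by any annotated exon of a gene. This length was 2219 bases for CXCL3 and 1986 for CCL2, whose longest coding transcripts had 1075 and 741. For CCL7 (863 and 810) and CXCL5 (2538 in both) the lengths were close or equal, so the order of genes depends on the length used. On the exon length, CCL2 was the most abundant in controls at 50.2 ± 7.28 RPM per kb (SD, n = 3). CCL7 (10.5 ± 1.80) and CXCL8 (10.3 ± 0.368) followed and overlapped each other. Then came CXCL1 (2.92 ± 1.18), CXCL3 (1.02 ± 0.0992) and CXCL5 (0.826 ± 0.233), the last 2 overlapping. CXCL12 (0.434 ± 0.0823), CXCL2 (0.287 ± 0.0317), CXCL6 (0.281 ± 0.112) and CCL20 (0.133 ± 0.0518) were lowest, with overlap among CXCL2, CXCL6 and CCL20 as neighbours in this order. In knockdowns, on the same exon length, CXCL3 (0.400 ± 0.103 RPM per kb) lay below CXCL5 (0.461 ± 0.170) and CXCL12 (0.431 ± 0.0450). Its range overlapped those of both. The summed level of the 10 genes was 163, 133 and 136 RPM in controls and 173, 196 and 162 RPM in knockdowns, so the groups overlapped. CCL2 held most reads of the 10 genes, 69.0% ± 2.15 in controls and 72.1% ± 0.115 in knockdowns.

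**Figure D2:**
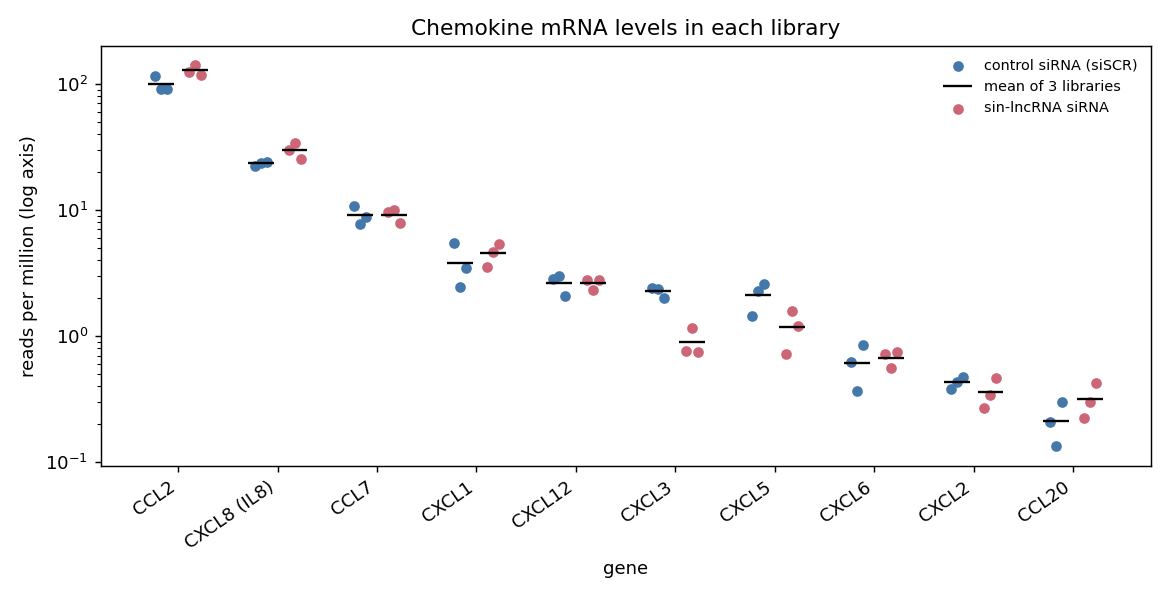
Levels of the 10 chemokine mRNAs in RPM on a log axis; each point is 1 library, blue for control and red for sin-lncRNA siRNA, and bars are means of 3 libraries. CXCL3 separates downward, from 2.01 to 2.41 RPM in controls to 0.748 to 1.15 in knockdowns, while CCL2 and CXCL8 separate upward.

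CXCL3 (ENSG00000163734.4), a neutrophil chemokine of the CXCL1 subgroup, showed the largest fall of the 10. Its level was 2.41, 2.36 and 2.01 RPM in controls and 0.762, 1.15 and 0.748 RPM in knockdowns, on 71 to 101 and 17 to 27 reads per library. Every knockdown library lay below every control, and the second knockdown was the highest of its group. This amounted to a log2 fold change of -1.35 (SE 0.20; limma with Benjamini-Hochberg adjustment, adjusted p = 0.000396), a mean level of 39.3% of control. It was the 59th lowest of the 19048 log2 fold changes. An exact two-sided permutation of the libraries gave p = 0.1, which is the lowest value the design can reach. With any 1 library left out the value ran from -1.55 to -1.24, and the call was kept each time. Summing the reads of CXCL1, CXCL2 and CXCL3, which removes any reads misassigned among them, gave -0.16 (SE 0.18; limma, adjusted p = 0.513). CXCL1 supplied the largest number of those reads in each library, with 74 against 71 for CXCL3 in control replicate 2.

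CXCL5 (ENSG00000163735.6), which also recruits neutrophils, was at 1.44, 2.26 and 2.58 RPM in controls and 0.717, 1.58 and 1.21 RPM in knockdowns. The lowest control lay between the 2 highest knockdowns, so the groups overlapped. The log2 fold change was -0.85 (SE 0.29; limma, adjusted p = 0.0373; exact permutation p = 0.2), on 16 to 37 reads per knockdown library. This call rested on single libraries and on the variance model. It was lost without the intensity trend (limma, adjusted p = 0.106). It was also lost without knockdown replicate 1 (-0.55; limma, adjusted p = 0.126), control replicate 3 (-0.68; 0.150), control replicate 2 (-0.78; 0.0709) or knockdown replicate 3 (-0.91; 0.0736). Without control replicate 1 or knockdown replicate 2 the log2 fold change was -1.10.

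CXCL8 (ENSG00000169429.6), the prototype neutrophil chemokine, moved the other way by a smaller amount. Its level was 22.4, 23.5 and 24.1 RPM in controls and 29.6, 34.0 and 25.5 RPM in knockdowns. The controls were tight and all 3 knockdowns lay above them, the third by little. The log2 fold change was 0.34 (SE 0.09; limma, adjusted p = 0.0127; exact permutation p = 0.1). It lost its call only when the variance model had no intensity trend (limma, adjusted p = 0.0637), among the 18 alternatives run.

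The other CXC genes of the cluster did not pass the threshold. CXCL1, first described as a melanoma growth factor, was at 5.46, 2.46 and 3.44 RPM in controls and 3.54, 4.61 and 5.41 RPM in knockdowns. The first control was as high as the highest knockdown, and the groups overlapped throughout. Its log2 fold change was 0.31 with a 95% interval from -0.24 to 0.86 (limma, adjusted p = 0.348). Without control replicate 1 it was 0.61 and was called (limma, adjusted p = 0.0330), and without control replicate 2 it was 0.04. CXCL2 rested on 13 to 24 reads in controls and 6 to 13 in knockdowns, with a log2 fold change of -0.26 (interval -0.92 to 0.41). CXCL6 had 11 to 43 and 13 to 21 reads, with a log2 fold change of 0.21 (interval -0.48 to 0.90). At these depths the intervals of CXCL2 and CXCL6 hold both a fall and a rise, so no change was detectable and none was shown to be absent.

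Ratios of reads compare 2 chemokines within each library. Per 100 reads of CXCL1, CXCL3 had 44.1, 95.9 and 58.4 reads in controls and 21.5, 25.0 and 13.8 in knockdowns. The groups did not overlap (exact permutation p = 0.1, the smallest possible). Per 100 reads of CXCL8, CXCL3 had 10.7, 10.0 and 8.33 reads in controls and 2.57, 3.39 and 2.94 in knockdowns, again without overlap (exact permutation p = 0.1). The ratio of CXCL5 to CXCL6 reads overlapped between groups (exact permutation p = 0.2), and that of CXCL1 to CXCL8 reads was 16.4 ± 7.13 per 100 in controls and 15.6 ± 4.97 in knockdowns (SD, n = 3; exact permutation p = 1.0). These are 4 of 5 ratios computed, the fifth being that of CCL7 to CCL2. They were chosen after the values were seen, and after Benjamini-Hochberg adjustment over 5 none could pass 0.05.

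CXCL12, a chemokine that holds stem and progenitor cells in their niche and carries no kappaB core in its window, did not pass the threshold. It was at 2.85, 3.00 and 2.07 RPM in controls and 2.78, 2.31 and 2.78 RPM in knockdowns. The third control was the lowest library of all 6. The log2 fold change was 0.01 with an interval from -0.36 to 0.38 (limma, adjusted p = 0.974).

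Of the CC chemokines, CCL2 (ENSG00000108691.5), the main monocyte attractant, rose. Its level was 116, 90.8 and 91.8 RPM in controls and 125, 141 and 117 RPM in knockdowns. The first control came close to the lowest knockdown, and the groups did not overlap. The log2 fold change was 0.36 (SE 0.09; limma, adjusted p = 0.00989; exact permutation p = 0.1), on 2728 to 4618 reads per library. Among the 18 alternatives the call was lost only without the intensity trend (limma, adjusted p = 0.0698). CCL7, its neighbour on chromosome 17 and a ligand of the same receptor, was at 10.8, 7.73 and 8.74 RPM in controls and 9.55, 9.95 and 7.80 RPM in knockdowns, with full overlap. Its log2 fold change was 0.01 (interval -0.28 to 0.30; limma, adjusted p = 0.962). CCL7 had 9.10 ± 0.536 reads per 100 reads of CCL2 in controls and 7.12 ± 0.499 in knockdowns (SD, n = 3), and the groups did not overlap (exact permutation p = 0.1). CCL20, which attracts CCR6-bearing lymphocytes and dendritic cells, had 7, 4 and 15 reads in controls and 5, 7 and 12 in knockdowns. Its difference of 0.60 in mean log2 value was not tested in the filtered table; without the filter it had an interval from -0.36 to 1.55 (limma, adjusted p = 0.400).

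**Figure D3:**
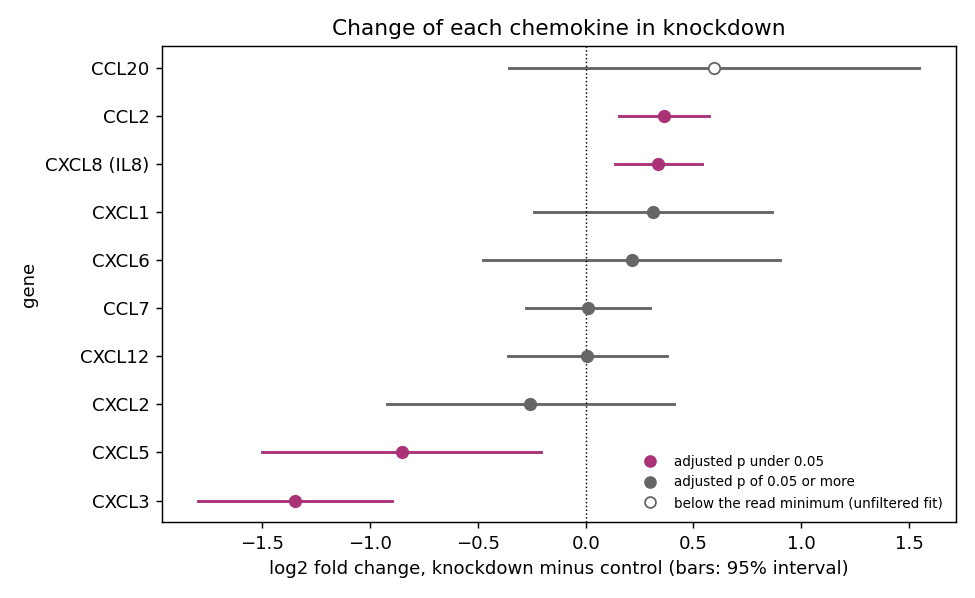
Log2 fold changes of the 10 chemokines, knockdown minus control, with 95% intervals from limma; purple marks an adjusted p under 0.05, and the open point (CCL20) comes from the fit without a filter. CXCL3 (-1.35) and CXCL5 (-0.85) lie below 0, CCL2 (0.36) and CXCL8 (0.34) above it, and the other intervals cross 0.

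Variation within groups differed between the chemokines. As deviations from the group means of log2 values, the 5 pairs of 36 with the largest absolute correlations over the 6 libraries were CCL2 and CCL7 (0.91), CXCL3 and CXCL8 (0.71), CXCL2 and CCL7 (-0.68), CXCL3 and CCL2 (0.67) and CXCL2 and CXCL5 (0.66). Among the close copies, CXCL1 and CXCL2 correlated at 0.20, CXCL1 and CXCL3 at 0.10 and CXCL2 and CXCL3 at -0.23. These values are descriptions, as the 6 deviations of a gene share their group means and libraries. The mean deviation of the 6 chromosome 4 chemokines was lowest in knockdown replicate 1 (-0.227) and highest in knockdown replicate 2 (0.144). The genes whose deviations were most like this mean, among 15109 with at least 50 reads, were the actin pseudogene ACTBP2 and the pseudogene CTB-33G10.1 (Pearson r = 0.998), and NOA1, NDEL1 and LPCAT1 (r = 0.995). With 6 libraries and 15109 candidates, values this high can arise by chance, and the names are a description only.

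**Figure D4:**
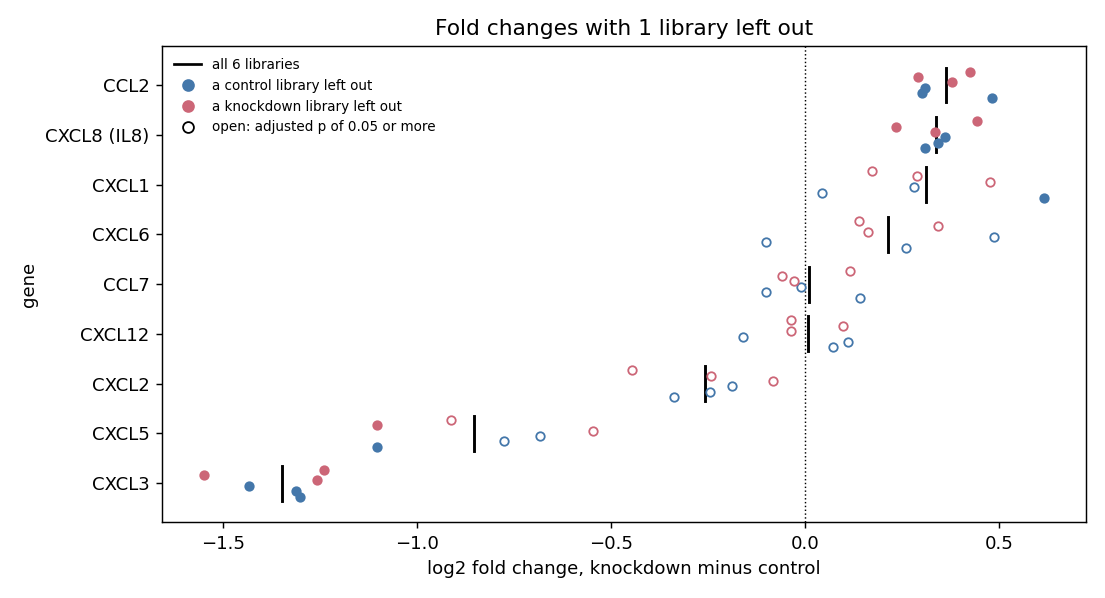
Log2 fold changes of the 9 tested chemokines after leaving out each library in turn; blue points leave out a control, red points a knockdown, open points have an adjusted p of 0.05 or more in limma, and black bars show all 6 libraries. CXCL3, CXCL8 and CCL2 keep filled points throughout, CXCL5 keeps 2 of 6, and CXCL1 gains 1, without control replicate 1.

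Around the chromosome 4 cluster, 36 genes, the chemokines included, lay within 500 kb and 12 were tested, 6 of them not chemokines. EREG, which encodes the growth factor epiregulin, was at 109, 108 and 110 RPM in controls and 70.2, 72.4 and 67.5 RPM in knockdowns. It fell without overlap (log2 fold change -0.64, SE 0.05; limma, adjusted p = 2e-06). AREG, which encodes amphiregulin, rose from 38.2 ± 4.64 to 45.0 ± 3.31 RPM (log2 fold change 0.24, SE 0.09; limma, adjusted p = 0.0419). AREG has a near-identical listed copy, AREGB, and lost its call in 8 of the 18 alternatives. ANKRD17 (log2 fold change 0.16) and the pseudogene RP11-629B11.4 (0.25) rose and lost their calls in 8 and 2 alternatives. With the replicate block, AREG (limma, adjusted p = 0.0992) and ANKRD17 (0.113) were not called. MTHFD2L (0.09) and HNRNPA1P55 (-0.17) did not pass the threshold in limma. Genes next to each other in this stretch thus moved in both directions, as the chemokines did.

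Few other chemokines were detected. Of 36 further ligands, 16 had no read in any library and 2 were tested. CX3CL1, the membrane-anchored chemokine fractalkine, was at 3.20, 2.50 and 2.74 RPM in controls and 1.12, 1.02 and 0.855 RPM in knockdowns, a log2 fold change of -1.47 (SE 0.17; limma, adjusted p = 6.88e-05). CXCL10, an interferon-induced chemokine for T cells, was at 0.705, 0.400 and 0.457 RPM in controls and 1.17, 0.982 and 0.926 RPM in knockdowns. Its log2 fold change was 1.00 (SE 0.26; limma, adjusted p = 0.0102), on 12 to 26 reads per library. Both genes kept groups apart and kept their calls in all alternatives in which they were tested.

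Few reads came from chemokine receptors in these cells. Of 23 receptor genes 4 were tested, and CXCR2 (mean of 0.7 normalized reads), CXCR4 (1.8) and CCR2 (0.2) were not among them. CCR1, a receptor for several CC chemokines including CCL7, rose. It was at 0.910, 1.20 and 0.914 RPM in controls and 4.03, 3.71 and 3.95 RPM in knockdowns, a log2 fold change of 1.95 (SE 0.16; limma, adjusted p = 5.24e-06) on 31 to 111 reads. CXCR6, CCR7 and CCR10 did not pass the threshold.

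The genes that control chemokine transcription were taken from lists fixed with earlier results known. Over all genes tested 17.5% were called higher and 23.5% lower, 41% in all, and the counts in these lists stand beside those shares. Whether a list differs from them was not tested. Of 20 NF-kB pathway genes 3 rose and 3 fell, with a median log2 fold change of 0.08. TNFAIP3, an NF-kB target that feeds back on the pathway, rose (0.57, SE 0.11; limma, adjusted p = 0.00207), as did NFKB1 and NFKBIA. TRAF1 (-0.79), IKBKB (-0.42) and IKBKG (-0.39), the last 2 encoding kinase complex subunits, fell. For RELA, the NF-kB subunit that drives CXCL8, the log2 fold change stood at -0.05 (SE 0.05; limma, adjusted p = 0.377). Of 16 tested genes for upstream cytokines and their receptors 5 rose and 6 fell, with a median of 0.11. IL1B went from 18.7 ± 2.91 to 11.1 ± 0.0626 RPM (log2 fold change -0.74, SE 0.10; limma, adjusted p = 0.000228). The receptor chains IL1RAP (log2 fold change 2.54) and IL1R1 (0.83) rose, and TNFRSF1B (-1.14) fell. Of 11 C/EBP and AP-1 factors 3 rose and 2 fell, with a median of -0.001: ATF3 (1.72), FOSL2 (0.63) and CEBPG (0.32) were higher, and JUN (-0.44) and FOSL1 (-0.24) lower. For CEBPB, the C/EBP factor tied to the secretory phenotype, the log2 fold change stood at -0.09 (SE 0.14; limma, adjusted p = 0.664). JUN was not called without the intensity trend (limma, adjusted p = 0.0519).

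Most chemokine mRNAs carry AU-rich elements, which mark an mRNA for rapid decay. The pentamer ATTTA occurred 10 times in the longest coding transcript of CXCL2, 7 in CXCL3, 10 in CXCL8, 5 in CXCL1, 11 in CXCL5, 6 in CXCL6 and 4 in CCL20 (GENCODE 29). Per kilobase these were 3.49 to 8.21, and only 4 of 19684 coding genes were at least as dense as CXCL2 and 820 as CXCL6. CCL2 (1.35 per kb), CCL7 (2.47) and CXCL12 (1.13) were closer to the median of all coding genes, 0.94. Of the chemokines called, CXCL3 (6.51 per kb) and CXCL5 (4.33), which fell, and CXCL8 (5.87), which rose, were dense in the pentamer, and CCL2, which rose, was not. Whether the pentamer bears on the direction was not tested. Of 12 genes for AU-rich decay and mRNA stability 4 rose and 6 fell, where 41% of all genes tested were called. Whether this list differs from that share was not tested. Its median log2 fold change was -0.11. ZFP36L2, which promotes decay (-0.66, SE 0.08; limma, adjusted p = 0.00011), MAPKAPK2, the kinase that restrains ZFP36 (-0.57), KHSRP (-0.55) and DUSP1 (-0.44) fell. ZFP36 itself fell (-0.40, SE 0.12; limma, adjusted p = 0.024), and ZFP36L1, another decay factor, rose (0.30).

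Of 13 tested genes that cut or hold chemokines 4 rose and 4 fell, where 41% of all genes tested were called. Whether this list differs from that share was not tested. Its median log2 fold change was -0.01. DPP4, the peptidase that inactivates CXCL12, rose from 84.8 ± 4.35 to 118 ± 1.08 RPM (log2 fold change 0.48, SE 0.05; limma, adjusted p = 2.44e-05). The cell-surface proteoglycan SDC2 rose (1.02) and GPC1 fell (-0.61), as did the membrane protease MMP14 (-0.30). MMP1, the collagenase that is abundant in these cells, was at 3140 ± 373 and 3060 ± 237 RPM (log2 fold change -0.03, SE 0.08; limma, adjusted p = 0.767).

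**Figure D5:**
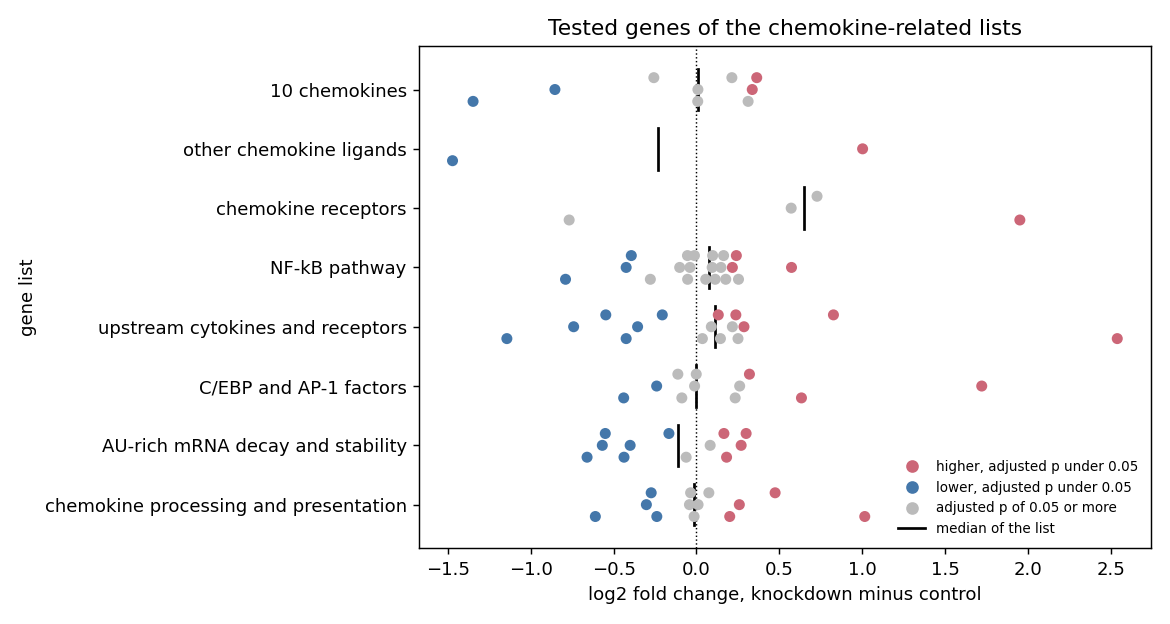
Log2 fold changes, knockdown minus control, of the tested genes in the chemokine list and 7 related lists; each point is a gene, red and blue mark genes higher and lower at an adjusted p under 0.05 in limma, grey the rest, and bars are list medians. Each list holds points on both sides of 0, and the chemokine median is 0.01.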

How the data were processed

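Polyadenylated RNA of 6 libraries was sequenced as single reads of 50 bases, per the labels' protocols. The authors deposited a single table of log2 CPM, with an offset of 0.5 reads, a form read from its values. Bowtie2, featureCounts and hg19 are named, without role, in the submitters' processing notes; strand setting, annotation release and aligner parameters are not given in the sources used here. Columns were matched to samples by replicate number and siRNA name; an ending on the knockdown column names is not explained by the labels. Reads were recovered from each library's lowest value and were whole, within 0.01 reads, for 100.0% of values. RPM values (CPM) are these reads over the effective library size.

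The deposited log2 values were fitted with limma 3.58.1 (R 4.3.3; lmFit, eBayes with intensity trend, group as the sole term, two-sided) on the 19048 genes with a mean of at least 10 normalized reads. P-values were adjusted by Benjamini-Hochberg and called at 0.05. The script was tested on simulated counts. Exon lengths and transcripts were from GENCODE 29, matched by gene ID, and promoters from RefSeq (GRCh38.p14). The exon length of a gene was the number of bases covered by any of its annotated exons. The members and lists were chosen with earlier results of these data known. Named were all members and up to 4 called genes per list by absolute fold change. Every further ligand or receptor with a mean of at least 50 reads was named too. Also named were tested genes within 500 kb of the chromosome 4 members, the 5 genes most like those members within groups, and the target. FOSL1, NFKB1, NFKBIA, RELA, CEBPB, ZFP36, ZFP36L1, MMP1 and receptors below the threshold were added after their values were seen. Alternatives covered pseudocount, filter, scaling, variance model, depth, replicate block and each library left out; the summed reads of CXCL1, CXCL2 and CXCL3 were added after seeing the data.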

Additional observations from a re-analysis of the deposited data

How the results depend on the processing

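The number of chemokines called was 4 (2 higher, 2 lower) and lay between 3 and 5 on leaving out single libraries (higher 2 to 3, lower 1 to 2). Without the intensity trend it was 1, with 0 higher and 1 lower. A mean of at least 50 normalized reads left 1 lower, because CXCL3 (49.4) falls under that minimum. Among all genes tested, 5803 to 7879 were called in the 18 alternatives. Of the chemokines not called, CXCL6 had log2 fold changes of -0.102 to 0.486 on leaving out single libraries, below 0 without control replicate 2. CXCL12 was -0.002 with a pseudocount of 5 RPM, -0.023 with all libraries thinned to the smallest total, and -0.16 to 0.11 with a library left out. CCL7 was -0.004 under voom, -0.061 after thinning, and -0.10 to 0.14 with a library left out. CXCL1 became -0.16 as the sum with CXCL2 and CXCL3, and HNRNPA1P55 0.044 without knockdown replicate 2. Pseudocounts of 5 RPM shrink the changes of low genes by construction, to -0.30 for CXCL3 and -0.20 for CXCL5. Deviations of libraries with the same replicate number correlated at -0.15, -0.18 and 0.07. With 3 libraries per group, these values cannot show whether libraries of the same number were prepared together. With the replicate block 6454 genes and 4 chemokines were called. Depth limits CXCL2, CXCL6 and CCL20, with 4 to 43 reads per library.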
